A study of Homo sapiens with 4 samples.

Results

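The comparison described here is that of T84 cells given the microRNAs miR-338-3p and miR-451 with T84 cells given a control oligonucleotide, both collected on day 5. It rests on 2 of the 4 arrays of the series, chosen by their labels, with 1 array on each side, and the account centres on genes that the array reads with 2 or more probe sets whose differences agree. Of 12264 expressed genes, 5896 had at least 2 expressed probe sets, and 94 of these were at least 2-fold apart, in one direction, on every one of them. The T84 line comes from a human colorectal carcinoma and forms a polarised epithelial layer on a porous support. The cells were seeded at 500000 per well on polycarbonate filters of 24 mm diameter with 0.4 µm pores, transfected with 15 pmol of oligonucleotides and given fresh medium on alternate days. The control oligonucleotide is a short RNA with little similarity to human microRNAs. The remaining arrays came from cells that received miR-210 and miR-33a in addition to miR-338-3p and miR-451, collected on day 5, and cells given the control oligonucleotide and collected on day 7. The study asked which microRNAs take part in the formation of epithelial polarity, in which β1-integrin holds the basal side of the layer to its support.

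MicroRNAs are short RNAs that sit in Argonaute proteins and pair with messenger RNAs, mainly through the seed near their 5′ end, which lowers the stability or the translation of the messenger. The precursor hairpin leaves the nucleus through exportin-5 and is cut by Dicer, and paired messengers are deadenylated, decapped and digested by the exonuclease XRN1. miR-338-3p is encoded within AATK, a kinase gene best known from the nervous system, and miR-451, best known from red cell precursors, is cut by the Argonaute protein AGO2 in place of Dicer. The mature sequence of miR-338-3p is shown because its seed, bases 2 to 8, is the part that pairs with messengers. The seed is in capitals, and the sequence is that of RefSeq on GRCh38.p14, minus strand of chr17:81125887-81125908.
miR-338-3p: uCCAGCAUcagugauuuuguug
The matching site in a messenger would read AUGCUGG, and 0 of the other mature microRNAs among the 2545 in the table carried the same seed. The host gene AATK read 349 with the microRNAs and 389 in the day 5 control.

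The arrays differed in brightness before scaling. The trimmed mean of the deposited values was 147 with the 2 microRNAs and 76.6 in the day 5 control, while the highest deposited value was between 17832 and 18749 on all 4 arrays. Scaling to a trimmed mean of 500 therefore multiplied the 2-miRNA array by 3.39 and the day 5 control by 6.53, and the 110 genes with a deposited signal over 8000 were low after it, with 92 of them below 0 and a median log2 difference of -0.54. None of those genes (0 of 110) was among the 94. Of the 5896 only 1.10% agreed higher and 0.492% lower, and genes with 1 expressed probe set could not agree. A count of 0 therefore says little about the bright genes. Both miRNA arrays were the bright ones, so brightness and microRNA treatment cannot be told apart. The ratio of 3′ to 5′ signal of ACTB was 2.28 with the 2 microRNAs and 2.11 in the day 5 control, and that of GAPDH was 0.962 and 1.02. Epithelial markers summed to a scaled signal of 204448 and 204063 on these arrays. Of the markers of other cells, 3 of 10 for leukocytes, 2 of 8 for fibroblasts and 1 of 6 for endothelium were expressed. Their summed signals were 646, 241 and 199 on the 2-miRNA array and 319, 383 and 215 on the day 5 control. Of the 3 leukocyte markers 2 were below 0. The 1 above 0 was LYZ, which is also the lysozyme of Paneth cells, at a log2 difference of 1.86. The part of these markers in the differences was not tested. In bulk RNA, fewer cells of a kind and less of a messenger per cell cannot be told apart. No replicate exists in any group, so the spread between cultures was not measured and no p-value is given.

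Every difference below is log2(scaled signal + 32) on the 2-miRNA array minus the same on the day 5 control, so positive values are higher with the microRNAs. By the brightest probe set of each gene, 995 genes (8.11%) were higher by 2-fold or more and 781 (6.37%) lower by as much, around a median gene at -0.16. These 2 shares, with 40.6% of all genes above 0, are the background for the list counts below. Under a centring that follows the signal level those counts were 1203 and 527, and under scaling by the array median they were 1341 and 425. A second probe set often told another story. Among the 791 genes with several probe sets that were 2-fold apart on the brightest one, 327 (41.3%) had another probe set on the other side of 0, and 36 had one that was 2-fold apart in the opposite direction. RAD21, a cohesin subunit, showed this plainly: its probe sets read 11895 and 3016 with the microRNAs against 1645 and 2865 in the control, a difference of 2.83 on the first and 0.07 on the second. RB1, the retinoblastoma protein, differed by 2.82 and 0.17 in the same manner, although its second probe set was close to the array median. The SD between the 2 differences of a gene, over the 3266 genes with exactly 2 expressed probe sets, was 0.64 per probe set.

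**Figure D1:**
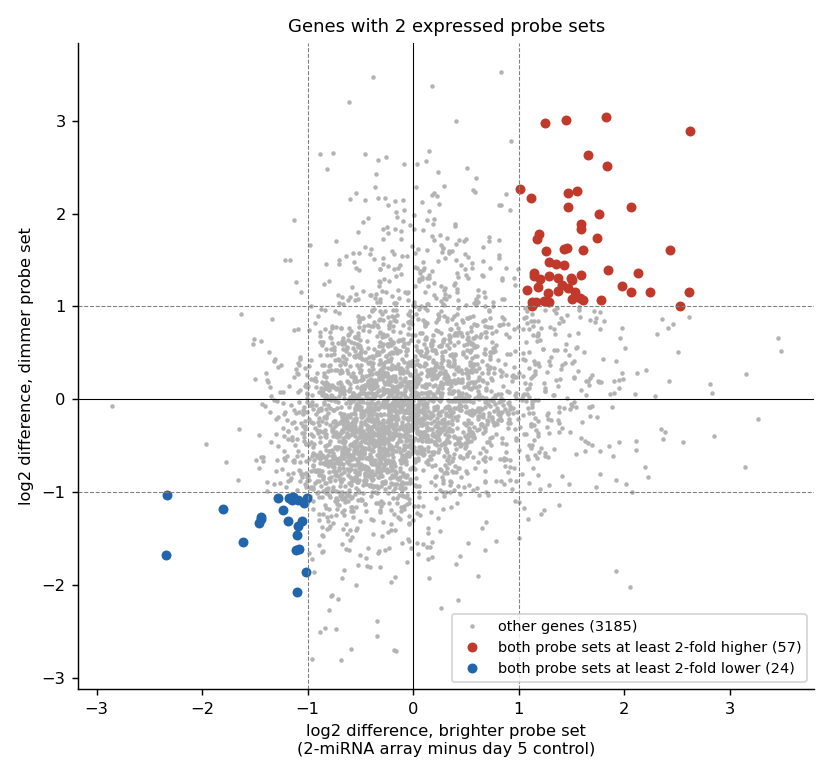
Each point is 1 of the 3266 genes with 2 expressed probe sets; the axes give the log2 difference (2-miRNA array minus day 5 control) of the brighter and of the dimmer probe set, and dashed lines mark 2-fold. Points are spread widely along both axes, and 57 genes fall past 2-fold on both probe sets in the higher corner against 24 in the lower one.

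Requiring every expressed probe set to be at least 2-fold apart in one direction left 65 genes higher with the microRNAs (1.10% of the 5896) and 29 lower (0.492%). Under scaling by the array median the counts were 120 and 11, under the centring by signal level 97 and 12, and without probe sets that may match several transcripts 39 and 11. With no filter on low signal the balance turned, with 74 higher and 88 lower. The brightest probe set alone gave 542 genes higher and 249 lower among the same 5896. A looser rule, that every probe set lie on one side of 0, was met by 1142 genes above (19.4%) and 1697 below (28.8%), so more genes agreed on a lower value although more were 2-fold higher. Most of the 94 had exactly 2 probe sets (57 higher, 24 lower), while 8 higher and 5 lower genes had 3 or more. In 38 of the higher and 19 of the lower genes every probe set was at or above the array median on both arrays. The others had at least 1 probe set under the median of one array, and for such a probe set the fold is given below as a floor, namely its brighter value divided by the middle signal of the array on which it was dim. That floor is a ratio of scaled signals without the added 32, so it can differ from the log2 difference of the same probe set in either direction.

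**Figure D2:**
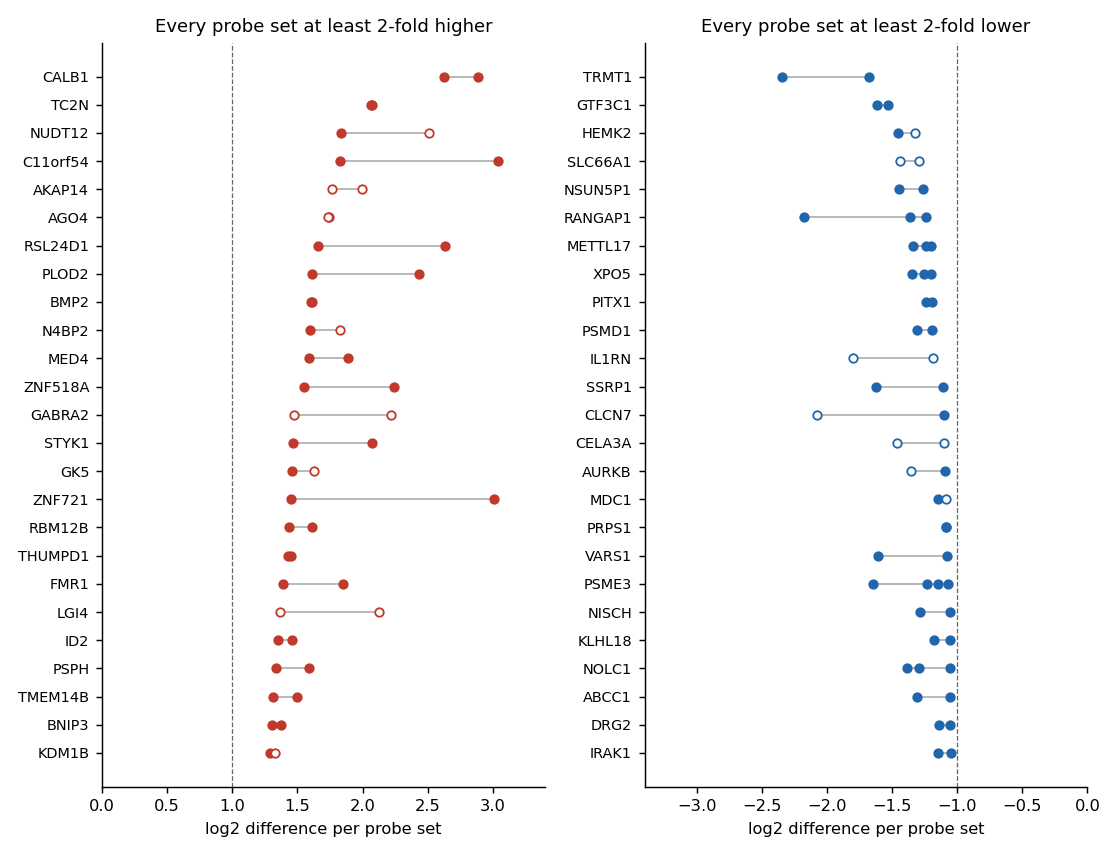
Log2 differences of each expressed probe set (points) for the first 25 agreeing genes in each direction, ordered by the smaller difference; open points were under the array median on one side, and the dashed line marks 2-fold. CALB1 stands at 2.62 and 2.88 on the left and TRMT1 at -2.35 and -1.67 on the right, and every point lies beyond the dashed line.

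First in order on the higher side, by the smaller of its differences, was CALB1, which encodes the calcium-binding protein calbindin. Its probe sets read 1455 and 1622 on the 2-miRNA array and 209 and 192 on the day 5 control, differences of 2.62 and 2.88, or 6.16-fold and 7.39-fold. The day 7 control read 531 and 304, above the day 5 control and below both miRNA arrays. TC2N, a protein with tandem C2 domains, came next, with 1170.3 and 784 against 255 and 162, and both probe sets gave 2.07. C11orf54 read 2878 and 3193 against 787 and 360.3, differences of 1.83 and 3.04. These 3 genes were high on every probe set of both miRNA arrays and low on both controls.

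RSL24D1, a factor of large ribosomal subunit assembly, was among the brighter members, at 15820.0 and 12325 against 4997 and 1959, differences of 1.66 and 2.63. NUDT12, a hydrolase of nicotinamide dinucleotides, differed by 1.84 on its brighter probe set and was at least 2.33-fold higher on its dim one. MED4, a subunit of the Mediator complex that joins transcription factors to RNA polymerase II, read 2265 and 938 against 731 and 230.3, differences of 1.59 and 1.89. Of 18 Mediator subunits with several probe sets, MED4 was the 1 that agreed past 2-fold (1.10% of the 5896 agreed higher). Over the 27 expressed subunits the median was -0.05, against -0.16 for all genes. MED23, another subunit, was above 0 on all 5 of its probe sets. It differed by 3.04, 0.62, 0.63 and 1.08 on 4 of them and was at least 1.67-fold higher on the dim one.

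The remaining genes among the first 15 were of several kinds. The zinc finger gene ZNF518A differed by 1.55 and 2.24 and the kinase-like gene STYK1 by 1.46 and 2.07, with every probe set measured on both arrays. N4BP2, a partner of the ubiquitin ligase NEDD4, differed by 1.59 on the first probe set and was at least 2.7-fold higher on the second, and GK5, of the glycerol kinase family, by 1.46 and at least 1.84-fold. AKAP14, an anchor of protein kinase A, was at least 4.13-fold and 2.42-fold higher, and GABRA2, a receptor subunit for the transmitter GABA, at least 2.82-fold and 2.02-fold. The last pair were dim on the day 5 control on both probe sets. On the day 7 control GABRA2 read 269.8 and 223, close to the 279.9 and 201 of the 2-miRNA array.

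The microRNA pathway itself held 3 agreeing genes among the 17 of the small RNA silencing list with several probe sets, 2 higher and 1 lower (1.10% and 0.492% of the 5896). AGO4, one of the Argonaute proteins that carry small RNAs, read 1071 on its brighter probe set with the microRNAs against 298 in the control, a difference of 1.74, and was at least 2.01-fold higher on the dim one. On the day 7 control that dim probe set stood at 208, as high as the 200.1 of the 2-miRNA array, so the probe sets of AGO4 agreed against day 5 but not against day 7. XRN1, the exonuclease that degrades decapped messengers, read 1415, 878 and 243 against 572, 278 and 68.7; the first 2 differed by 1.26 and 1.55, and the dimmest was at least 2.45-fold higher. The day 7 control lay between the groups on all 3.

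XPO5, which encodes exportin-5, was lower on each of its 3 probe sets. They read 918, 412 and 289.6 on the 2-miRNA array against 2148, 1029.6 and 788 on the day 5 control, differences of -1.20, -1.26 and -1.35. The 4-miRNA array read 911, 488 and 279 and the day 7 control 1414, 656 and 526, so both miRNA arrays were below both controls on every probe set. DICER1, which cuts the hairpin, was higher on all 3 probe sets, by 1.39, 1.65 and 0.58, but past 2-fold on 2 of them. AGO2 differed by -0.52 on its single expressed probe set. PAN3, a subunit of a deadenylase, differed by 1.23 on its single expressed probe set. Over the 22 genes 10 were above 0 by the brightest probe set, 4 were higher by 2-fold or more and 1 lower by as much, and the median of -0.10 was close to that of all genes; it was 0.086 under scaling by the array median. FMR1, chosen here after its values were seen, encodes an RNA-binding repressor of translation. It read 6389 and 4577 with the microRNAs against 1752 and 1725 in the day 5 control and 1726 and 1781 in the day 7 control, with differences from day 5 of 1.85 and 1.39.

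Genes known to be induced by the hypoxia-inducible factor HIF, which is hydroxylated and destroyed when oxygen is ample, were higher as a group. Of 22 expressed members 19 were above 0 on the brightest probe set (40.6% of all genes were), around a median of 1.20. At least 2-fold, 13 were higher and 1 lower (8.11% and 6.37% of all genes). Of the 12 members with several probe sets, 8 were above 0 on all of them (background 19.4%). EGLN3, BNIP3 and BNIP3L were the 3 that agreed past 2-fold (background 1.10%). EGLN3 encodes an oxygen-sensing hydroxylase that acts on HIF. Its probe sets read 1415 and 908 on the 2-miRNA array, 274 and 391 on the control of day 5 and 1382 and 847 on that of day 7. The differences from day 5 were 2.24 and 1.15, whereas those from day 7 were 0.03 and 0.10.

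BNIP3 and BNIP3L encode related mitochondrial proteins that mark mitochondria for autophagy. BNIP3 read 17492 and 6903 against 6742 and 2772, differences of 1.37 and 1.31, and its day 7 control values were 17139 and 8097. BNIP3L read 5294 and 4597 against 1889.9 and 1989, differences of 1.47 and 1.20, and 4494 and 3933 on day 7. In each of these 3 genes the day 5 control was the lowest of the 4 arrays on both probe sets. The median of the list was 0.03 against the day 7 control, and the day 7 control was above the day 5 control by a median of 1.06. All of the arrays but the day 7 control were collected on day 5, so the array and the microRNAs cannot be told apart for these genes.

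Other HIF targets were higher on some probe sets or on a single one. PDK1, the kinase that closes the entry of pyruvate into mitochondria, differed by 2.44, 0.66 and 1.03, and ERO1A, an oxidase of the endoplasmic reticulum, by 1.79, 0.39 and 1.13. PFKFB3, a regulator of glycolysis, differed by 1.71 on 1 probe set. HK2, a hexokinase, had probe sets in opposite directions, at 1.66, -0.82 and -1.15. PLOD2, a collagen lysyl hydroxylase known to respond to low oxygen but not a member of the list, read 5982 and 1729.8 against 1083 and 545, differences of 2.43 and 1.61. SLC2A3, a glucose transporter from the list of glycolysis, was higher on all 3 probe sets, with 529, 465 and 310.0 against 164, 70.2 and 119. Unlike EGLN3 and BNIP3 it was also low on the day 7 control, at 148, 167 and 66.3. Of the 19 expressed genes of glycolysis 7 were above 0, with 3 higher by 2-fold or more and a median of -0.03.

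HIF binds DNA at a core of ACGTG. That motif, searched on both strands over the 250 bases before the start of the gene, was present in 18.7% of the 27305 promoters of the RefSeq table and in 23.3% of those of expressed genes. It was present in 9 of the 19 HIF targets with a promoter in the table, and in 7 of the 10 of these that were at least 2-fold higher. EGLN3, PDK1 and PFKFB3, all at least 2-fold higher, had no match, and ANGPTL4, at -1.04, had 1. Among agreeing genes with a promoter it was present in 15 of 48 higher and 5 of 22 lower. The palindrome CACGTG holds the motif on both strands and counts as 2 overlapping matches. A match describes the letters and is not a measured binding site. The following stretches of 100 bases are shown for BNIP3, whose probe sets agreed, and for ANKRD37, P4HA1 and ERO1A, higher on at least 1 probe set (1.27, 1.29 and 1.79 on the brightest), with matches in capitals, 5′ to 3′ on the strand of the gene, from RefSeq on GRCh38.p14. They lie at chr10:131982005-131982104 (minus), chr4:185396641-185396740 (plus), chr10:73096867-73096966 (minus) and chr14:52695620-52695719 (minus), in that order.
BNIP3: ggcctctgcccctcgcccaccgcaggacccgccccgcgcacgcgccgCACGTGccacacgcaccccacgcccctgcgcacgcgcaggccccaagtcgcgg
ANKRD37: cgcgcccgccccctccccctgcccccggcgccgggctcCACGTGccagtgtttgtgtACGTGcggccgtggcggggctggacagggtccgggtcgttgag
P4HA1: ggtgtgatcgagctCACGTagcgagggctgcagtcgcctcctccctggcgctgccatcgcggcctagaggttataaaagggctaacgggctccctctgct
ERO1A: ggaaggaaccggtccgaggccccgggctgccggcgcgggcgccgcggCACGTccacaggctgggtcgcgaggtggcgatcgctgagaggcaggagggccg

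Genes of the interferon response and the sensors of double-stranded RNA were mostly above 0. Of 29 expressed members 23 were (40.6% of all genes), 6 were higher by 2-fold or more and 0 lower by as much (8.11% and 6.37% of all genes), and the median was 0.33. On the 4-miRNA array minus the day 7 control the median of the list was -0.061, against -0.15 for all expressed genes. None of the list's 14 members with several probe sets agreed past 2-fold, and 7 of the 14 were above 0 on all probe sets. IFIH1, a sensor of long double-stranded RNA, read 723 on the 2-miRNA array, 691 on the 4-miRNA array, 128 on the control of day 5 and 145 on that of day 7, on its single probe set. DDX60, a helicase induced by interferon, read 5120.4, 2587, 1123 and 1311 in the same order, so both miRNA arrays were above both controls in these 2 genes. RIGI, the sensor of short RNA with a 5′ triphosphate, differed by 1.21 and 0.66 on 2 probe sets and was at least 1.91-fold higher on the dim one, and IFIT2 by 1.38 and 0.82. CXCL11, a chemokine induced by interferon that is not in the list, was at least 4.07-fold and 2.02-fold higher on its 2 probe sets with both controls dim. On the 4-miRNA array CXCL11 read 156 and 70.6, against 404 and 201 on the 2-miRNA array. CXCL11 was singled out after its values were seen.

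The interferon-stimulated response element (GAAA, any 2 bases, GAAA), searched on both strands, was present in 3.07% of all 27305 promoters and 2.33% of those of expressed genes, in 15 of the 24 list members with a promoter, and in 2 of the 5 of these that were at least 2-fold higher. Those 2 were IFIH1 and DDX60. Their stretches are shown with the matches in capitals, which in IFIH1 overlap and read on the opposite strand (2 of its 3 matches lie in the stretch shown), at chr2:162318786-162318885 (minus) and chr4:168318753-168318852 (minus) of GRCh38.p14, from RefSeq.
IFIH1: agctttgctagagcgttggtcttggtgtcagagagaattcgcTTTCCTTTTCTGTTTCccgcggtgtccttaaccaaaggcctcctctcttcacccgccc
DDX60: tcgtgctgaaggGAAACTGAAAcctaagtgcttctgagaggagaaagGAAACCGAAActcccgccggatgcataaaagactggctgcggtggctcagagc

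Signalling by TGF-β and bone morphogenetic proteins passes from secreted ligands through receptor kinases to SMAD proteins, which set the level of target genes such as the ID family. Its ligand BMP2 read 2255 and 977 on the 2-miRNA array and 718 and 300.1 on the day 5 control, differences of 1.61 and 1.60. On the day 7 control it read 1989 and 1370.1, so one probe set was above the 2-miRNA array and the other below it. ID2, a target of the pathway that blocks helix-loop-helix factors, read 5134 and 2301 against 1989 and 815 on day 5 and 2115 and 1251 on day 7. Its differences from the day 5 control were 1.35 and 1.46, and both miRNA arrays were above both controls on both probe sets.

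Other members of that pathway did not meet the rule. SKIL, a repressor of SMAD proteins, differed by 2.03, 0.99 and 1.08, and the receptor gene TGFBR1 by 1.53 and -0.03. RGMB, a co-receptor for the ligands, was lower on its 4 probe sets, with differences of -1.88, -1.42, -2.61 and -0.99, the last of which was under the array median with the microRNAs and at least 1.7-fold lower. Of the 25 expressed genes of the pathway 12 were above 0 (40.6% of all genes), and the median was -0.11. By 2-fold or more, 5 were higher and 2 lower (8.11% and 6.37% of all genes). CRIM1, a membrane protein that binds bone morphogenetic proteins and is not in the list, was higher on all 3 of its probe sets, which read 3126, 1828 and 1390.0 against 436, 699.7 and 628. It was singled out after its values were seen.

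On the lower side TRMT1 came first, an enzyme that methylates a guanosine of transfer RNA. It read 226 and 316 on the 2-miRNA array and 1281 and 1078 on the day 5 control, differences of -2.35 and -1.67. The 4-miRNA array read 521 and 443 and the day 7 control 1161 and 1095, so the controls lay together above both miRNA arrays. GTF3C1, a subunit of the factor that recruits RNA polymerase III to transfer RNA genes, read 560.0 and 181 against 1784 and 585, differences of -1.62 and -1.53. VARS1, which charges transfer RNA with valine, differed by -1.08 and -1.61, and HEMK2, which methylates a translation release factor, by -1.46 on one probe set and at least 2.91-fold on the dim other. VARS1 was singled out after its values were seen.

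RANGAP1, which activates the GTPase Ran at the nuclear pore, read 207, 368 and 122 against 1048, 913 and 364. Its differences were -2.17, -1.24 and -1.36, while those from the day 7 control were -1.47, -0.10 and -0.32. The list of the nuclear pore and Ran had 11 of 32 expressed members above 0 (40.6% of all genes) and a median of -0.44. In it 1 was higher by 2-fold or more and 4 lower by as much (8.11% and 6.37% of all genes). NUP93, a scaffold of the pore, read 942 against 3825 on its single probe set, and AAAS, another pore protein, 340.1 against 1312. NUP160, also of the scaffold, disagreed with itself, by 1.48, -0.44 and 0.14. Once probe sets that may match several transcripts were left out, 21 members remained, with a median of 0.017. The median of all genes was -0.11 in that setting. The loss of members and the change of probe sets were not told apart.

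Ribosome biogenesis was the list with the lowest share of members above 0 among those described here. Of 27 expressed members 2 were above 0 (40.6% of all genes), with a median of -0.68. In the list 7 were at least 2-fold lower and 0 higher by as much (6.37% and 8.11% of all genes). Of the 13 with several probe sets, 9 were below 0 on every one (background 28.8%), and NOLC1 agreed past 2-fold (background 0.492%). NOLC1, a nucleolar protein that accompanies ribonucleoproteins of the nucleolus, read 3724, 1116 and 594 against 7779, 2778 and 1607 on day 5 and 4951, 1749 and 1014 on day 7. It was lower on both miRNA arrays than on both controls. NOP14, NHP2 and NOP2, also of the nucleolus, differed by -1.55, -1.44 and -1.47 on single probe sets, and POLR1A, the large subunit of RNA polymerase I, by -1.28, -0.67 and -0.83. The day 7 control was itself below the day 5 control, by a list median of -0.49.

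Agreeing genes outside that list that take part in making ribosomes lay on both sides. RSL24D1, given above, was higher, and so was NIP7, which read 2098 and 1295 against 841 and 444. NIP7 and DHX33 were singled out after their values were seen. METTL17, an assembly factor of mitochondrial ribosomes, was lower on 3 probe sets, at 1341, 1181 and 926 against 3118, 3039 and 2232, and DHX33, a helicase of ribosomal RNA transcription, differed by -1.005 and -1.06.

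The synthesis of amino acids and nucleotides held 1 agreeing gene in each direction among 13 with several probe sets (1.10% and 0.492% of the 5896). PSPH, the last enzyme of serine synthesis, was higher, with 2039 and 334 on the 2-miRNA array and 2095 and 347 on the 4-miRNA array, against 657 and 113 on the control of day 5 and 469.7 and 64.05 on that of day 7. PRPS1, which makes the ribose donor of nucleotide synthesis, was lower, with 1957 and 1051 against 4197 and 2268, and both of its probe sets gave -1.09. Of the 21 expressed members 3 were above 0 (40.6% of all genes), around a median of -0.57. PSPH was the 1 at least 2-fold higher, and 3 were at least 2-fold lower (8.11% and 6.37% of all genes). CTPS1 and CAD, of pyrimidine synthesis, differed by -1.66 and -1.33 on single probe sets. SLC19A1, the carrier of reduced folate, differed by -1.02 and was at least 2.95-fold lower on its dim probe set, whereas FOLR1, the folate receptor, read 4848 against 383 on its only probe set.

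Genes of DNA replication were mostly below 0, and those of mitosis were near the share of all genes, of which 40.6% were above 0. In the replication list 9 of 44 expressed members were above 0, 2 were higher by 2-fold or more and 6 lower by as much, with a median of -0.45 and 0 of its 23 members with several probe sets agreeing past 2-fold (1.10% of the 5896 were higher and 0.492% lower). CHAF1A, which deposits histones behind the fork, was below 0 on all 3 probe sets, with differences of -1.29, -1.01 and -0.60. CDT1, which loads the replicative helicase, had probe sets in opposite directions, at 1.24 and -1.19. In the mitosis list 13 of 34 were above 0, with a median of -0.31. AURKB, a mitotic kinase, read 1131 against 2448 on its bright probe set, a difference of -1.09, and was at least 3.1-fold lower on its dim one. SSRP1, a histone chaperone, differed by -1.11 and -1.63, and the repair scaffold MDC1 by -1.15 and at least 2.32-fold. MDC1 was singled out after its values were seen.

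Of the other lower genes, PSMD1, of the regulatory cap of the proteasome, read 3101 and 2643 against 7117 and 6586, and PSME3, a proteasome activator, was lower on 4 probe sets, the most of any agreeing gene, with differences of -1.14, -1.07, -1.65 and -1.23. PSME3 was singled out after its values were seen. CLCN7, a chloride exchanger of lysosomes, differed by -1.10 and was at least 2.14-fold lower on its dim probe set. SLC66A1, which exports basic amino acids from lysosomes, was at least 2.6-fold and 1.8-fold lower. IL1RN, an antagonist of interleukin-1, was at least 1.63-fold and 1.45-fold lower, and CELA3A, an elastase, at least 2.08-fold and 1.7-fold. PITX1, a homeobox factor, differed by -1.24 and -1.20. NSUN5P1 differed by -1.45 and -1.26; it is a pseudogene with close copies, and signal may be shared with them. Signal may also be shared with close copies for KRT8P12 and ANKRD36 on the higher side.

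**Figure D3:**
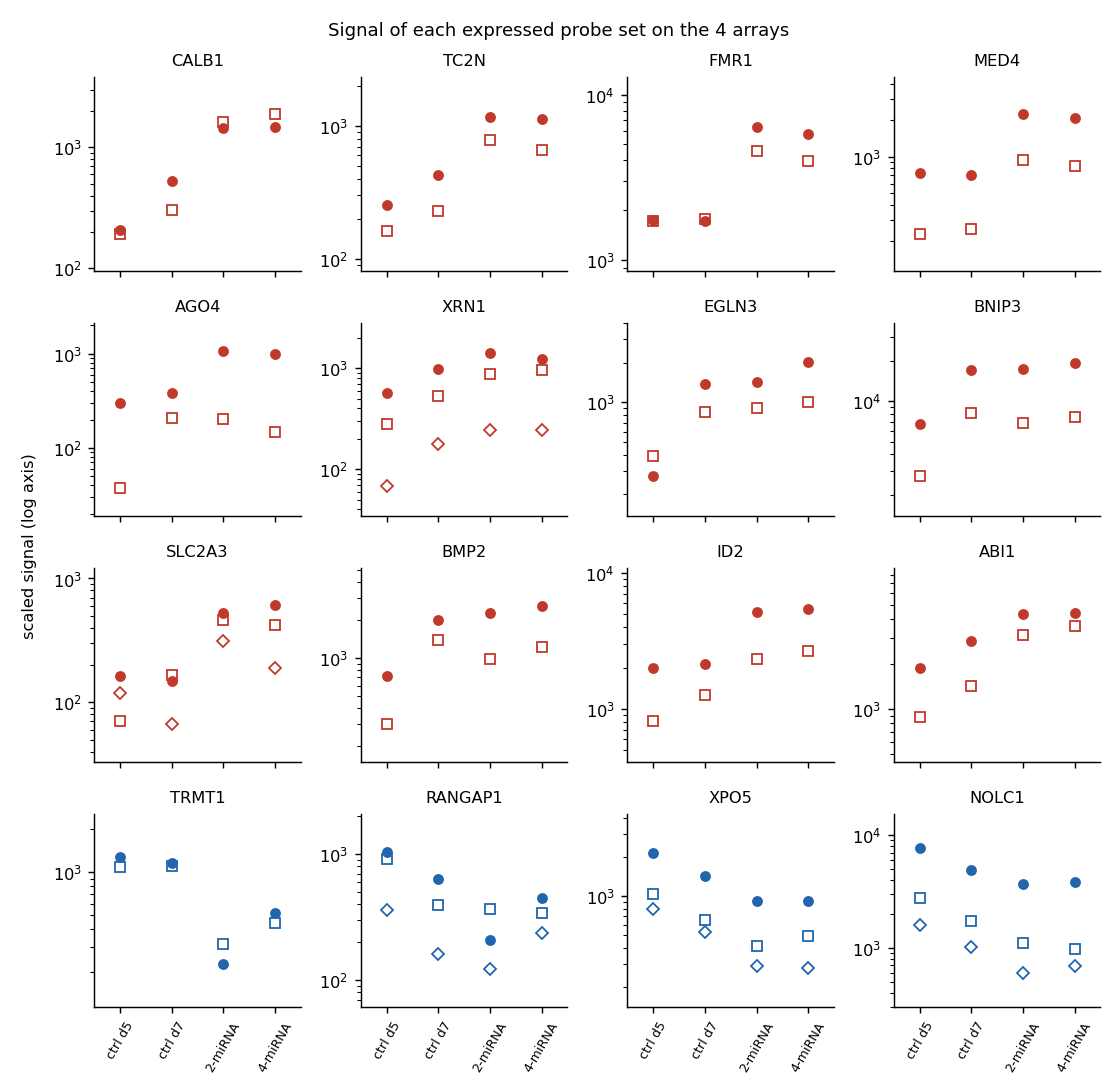
Scaled signal (log axis) of every expressed probe set of 16 agreeing genes on the 4 arrays, 1 marker shape per probe set; ctrl d5 and ctrl d7 are the controls of day 5 and day 7. CALB1, TC2N, FMR1, MED4 and ID2 are higher on both miRNA arrays than on both controls, EGLN3 and BNIP3 are low on the day 5 control alone, and TRMT1, XPO5 and NOLC1 are lower on both miRNA arrays.

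Genes of polarity and adhesion were the subject of the study, and the shares over all genes with several probe sets are again 1.10% agreeing higher and 0.492% agreeing lower. In the list of the WAVE and ARP2/3 complexes, which build branched actin at the cell edge, ABI1 was the 1 of 10 members with several probe sets that agreed, higher, with 4347 and 3117 against 1882 and 882 on day 5 and 2867 and 1427 on day 7. Its differences from day 5 were 1.19 and 1.78. NCKAP1, its partner in the complex, read 7579 against 646 on one probe set and 252 against 166 on the other, that is 3.49 and 0.52. Of the 15 expressed members 6 were above 0 and 2 at least 2-fold higher, with a median of -0.19. CAPZA2, which caps the growing end of actin filaments and is in no list, read 12646 and 2859 against 2987 and 1268, differences of 2.07 and 1.15. It was singled out after its values were seen.

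No integrin subunit agreed past 2-fold (0 of 7 with several probe sets). By the brightest probe set 4 of the 14 expressed were at least 2-fold higher (8.11% of all genes). ITGB1, which encodes β1-integrin, gave 0.39, -0.09, 0.74 and -0.47 on its 4 probe sets, the last of them under the array median on both arrays. ITGA2 and ITGA6, α partners of β1, had probe sets that disagreed, at 2.35 and -0.32 for ITGA2 and 1.77 and -0.56 for ITGA6. ITGAV and ITGB8 rest on 1 probe set each; ITGAV differed by 1.63, and ITGB8, dim on the day 5 control, was at least 10.5-fold higher. The list's median was 0.03, with 7 of 14 members above 0.

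Polarity complexes had 9 of 22 members above 0, 2 at least 2-fold higher and 0 lower, with a median of -0.16 that equals the median gene and was 0.020 under scaling by the array median. PARD6B, of the apical PAR complex, read 1574 against 196 on its single probe set, and PATJ, of the Crumbs complex, differed by 1.96, 0.02 and 2.37. Adherens junctions and desmosomes had 8 of 16 members above 0 and 3 at least 2-fold higher, with a median of 0.01. Among them DSC2, a desmosomal cadherin, was higher on all 4 probe sets by 1.10, 0.60, 1.04 and 2.01, 1 of which fell short of 2-fold, and CTNNB1, β-catenin, differed by 1.30 and 0.78. CDH1, the cadherin of epithelia, gave 0.14 and -0.18. Tight junction genes had 6 of 15 above 0 and a median of -0.10, and the pore-forming claudin CLDN2 read 745 against 3180.0 on its single probe set, with 1239 on the day 7 control.

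Genes reported as targets of the transfected microRNAs did not stand apart in counts. Of 13 expressed reported targets of miR-338-3p 7 were below 0, 2 were higher by 2-fold or more and 0 lower by as much, and the median was -0.10. Of 18 for miR-451 11 were below 0, 2 were higher by 2-fold or more and 1 lower by as much, and the median was -0.16, while 59.4% of all genes were below 0. Without probe sets that may match several transcripts these medians were 0.32 over the 12 targets left and 0.042 over the 9 left. The median of all genes was -0.11 in that setting. None of the 11 and 11 targets with several probe sets agreed past 2-fold. MACC1, a driver of cell motility reported for miR-338-3p, differed by 1.86, 0.94 and -0.16, and IGF1R, a growth factor receptor on the same list, by 1.13, 0.47, -0.17 and -1.12. MYC, a growth regulator on the miR-451 list, read 6867 with the microRNAs, 15165 on the control of day 5 and 11586 on that of day 7. CAB39, an activator of the kinase LKB1 and a widely cited target of miR-451, differed by -0.23 and -0.44, and MIF, a cytokine, by 0.22. SOX4, a transcription factor reported for miR-338-3p, was below 0 on 5 of 6 probe sets, at -0.10, -0.66, -0.72, -0.64, -0.13 and 0.28.

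**Figure D4:**
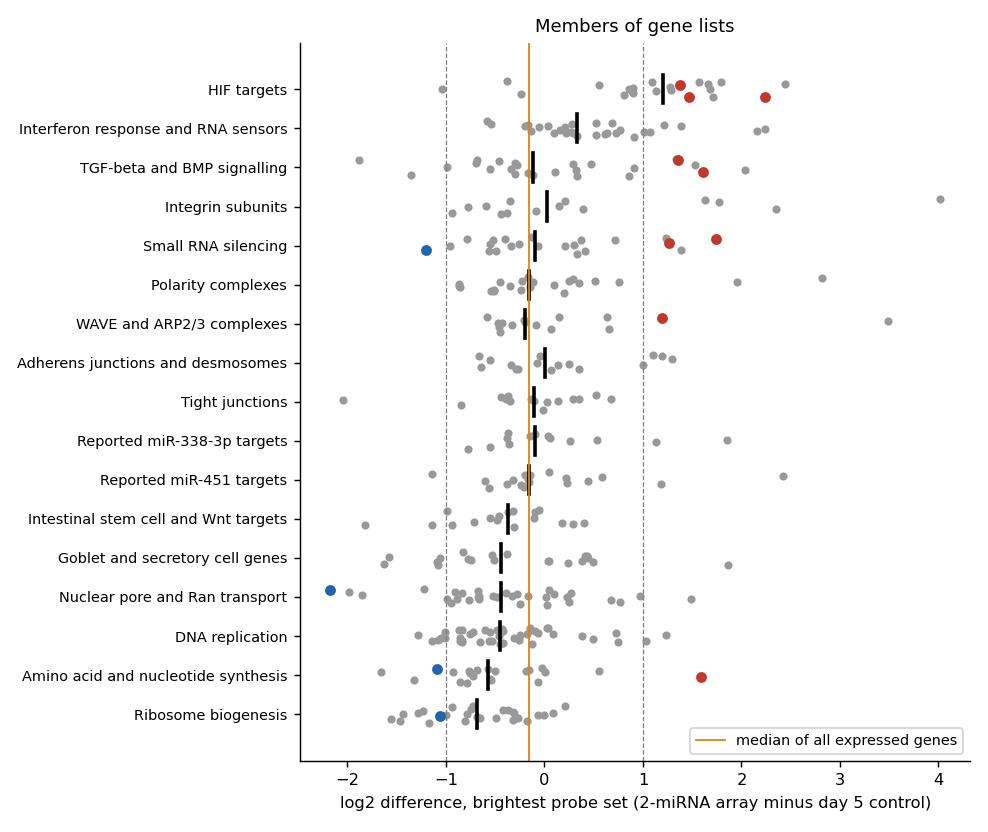
Log2 difference of the brightest probe set of each expressed member (points) in 17 gene lists, with list medians as black bars and the median of all expressed genes as a line; coloured points are genes whose probe sets all agreed past 2-fold, red higher and blue lower. The HIF targets, at a median of 1.20, lie farthest right and ribosome biogenesis, at -0.68, farthest left of the lists drawn.

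Genes named ZNF, which mostly encode zinc finger repressors, contributed 6 of the 65 higher genes and 0 of the 29 lower ones, out of 155 with several probe sets (1.10% and 0.492% of the 5896). Of 354 expressed ZNF genes 48 were higher by 2-fold or more and 17 lower by as much (8.11% and 6.37% of all genes), with a median of 0.05. The 6 were ZNF518A, ZNF721, ZNF765, ZNF320, ZNF616 and ZNF684. ZNF721 read 2637 and 1249 against 946 and 127, and ZNF765 2623 and 2339 against 991 and 1025. ZNF684 was dim on the day 5 control, and was at least 1.69-fold and 1.28-fold higher with the microRNAs. Many zinc finger genes lie in clusters of similar sequence, and probe sets of such genes may share signal. Among the other higher members with 3 agreeing probe sets were SLC35A3, a transporter of nucleotide sugars into the Golgi, at 2.27, 1.79 and 1.25, TOX3, a chromatin protein, at 1.08, 1.63 and 2.38, and the dynein subunit DYNC2LI1, at 2.12 and 1.10 with the dimmest at least 1.92-fold higher. These were named after their values were seen.

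The arrays that the rule did not use were read for the same 94 genes. Like the first pair, they set a brighter miRNA array, scaled by 3.33, against a dimmer control, scaled by 6.73. The filter for expressed probe sets used all 4 arrays, so the pairs are not fully separate. On the 4-miRNA array minus the day 7 control, which shares no array with the comparison above, 61 of the 65 higher genes were above 0 on the brightest probe set (44.0% of the 5896 were), with a median of 1.02 against -0.08 for all 5896. In 17 of the 65 every probe set was at least 2-fold higher there as well (0.492% of the 5896), and 51 were above 0 on every probe set. Of the 29 lower genes 26 were below 0 (56.0% of the 5896), with a median of -0.47, and TRMT1 was the 1 that was at least 2-fold lower on every probe set (0.288%). The genes outside the direction were AKAP14, LGI4, PLA2G12B and ZNF684 among the higher ones and PITX1, SEMA7A and PLEC among the lower ones. The 17 included CALB1, TC2N, C11orf54, MED4, FMR1, ID2, PSPH, NIP7 and SLC2A3.

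**Figure D5:**
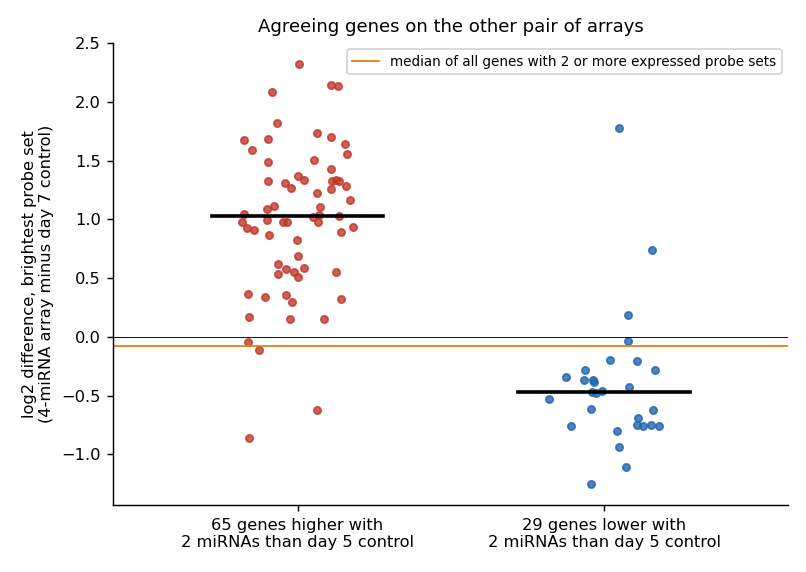
Log2 difference of the brightest probe set between the 4-miRNA array and the day 7 control for the 65 genes higher and the 29 genes lower with the 2 microRNAs than on the day 5 control; black bars are medians (1.02 and -0.47) and the line is the median of all 5896 genes with several probe sets (-0.08). Most points of the first group lie above 0 and most of the second below it.

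Both miRNA arrays were above both controls on every probe set in 49 of the 65 higher genes (6.72% of the 5896), and below them in 21 of the 29 lower genes (12.5%). Since the members were chosen by 2 of these 4 arrays, those counts are in part set by the choice. Against the day 7 control the 2-miRNA array differed by a median of 1.06 in the higher genes and -0.71 in the lower ones. The day 7 control differed from the day 5 control by a median of 0.38 and -0.50 in the same groups, against 0.00 over the 5896. Over all 5896 genes, 3731 were within 0.5 of the day 7 control on the 2-miRNA array. In 9 of the 65 higher genes the 2-miRNA array was within 0.5 of the day 7 control on the brightest probe set, BMP2, GABRA2, BNIP3, BNIP3L, PLA2G12B, SLC40A1, EGLN3, CTBS and ZNF684. In 7 of the 29 lower ones the same held, PITX1, CLCN7, PRPS1, PSME3, KLHL18, NOLC1 and DHX33. The comparisons that share the day 5 control share its measurement error, and their values are given side by side for that reason.

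The limit of 2-fold has neighbours on both sides. The smallest difference of a gene was between 0.95 and 1 in 25 genes just outside and between 1 and 1.05 in 10 just inside. PTPRR, a tyrosine phosphatase, was the nearest inside, at 2.53 and 1.0001, and SKIL and RGMB were among those outside. At least 1.5 on every probe set was reached by 12 of the higher and 2 of the lower genes. The genes of the higher group span a median of 34.9 kb on GRCh38.p14 and those of the lower group 22.5 kb, against 40.7 kb over the 5896. Among all genes by the brightest probe set, those at least 2-fold higher span a median of 44.8 kb and those at least 2-fold lower 20.5 kb, against 28.9 kb over the 12264. The median share of G and C bases in promoters was 66.6% for the higher and 65.4% for the lower genes, against 65.2% over the 5896. These values are partial, since 73.8% of the higher and 75.9% of the lower genes had a promoter in the table.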

How the data were processed

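Total RNA of T84 cells was labelled as biotinylated cRNA from 5 µg and hybridised to Affymetrix U133 Plus 2.0 arrays, 1 array in each of 4 groups, per the labels' protocols. The deposited table holds a linear intensity for each of 54675 probe sets, which the authors obtained by MAS5, per the submitters' processing notes; the MAS5 version, the scaling target and detection calls are not stated. The labels do not say whether 15 pmol counts a mix as a whole or each of its oligonucleotides. No scan date or batch was given.

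Each array was brought to a mean of 500 over all but its lowest and highest 2% of values, and log2(signal + 32) was taken; folds are on that scale and understate differences of dim probe sets. A symbol came from the platform annotation: 41097 probe sets had 1, 1801 had several and 11777 had none and were not named here. Of the named ones 41043 matched the RefSeq gene table of GRCh38.p14. A probe set counted as expressed if its mean log2 over the arrays lay in the upper part (median or above) of those on the chip, or if any array placed it at the 75th percentile or higher. A gene agreed when it had 2 or more expressed probe sets and all differed by a log2 of 1 or more in one direction. The number of arrays limits the precision; with 1 per group no test was made.

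Named were the first 15 agreeing genes in each direction by the smallest difference of their probe sets, agreeing list members, up to 4 members of a list past 2-fold, reported targets and a few fixed genes. Other genes were named after their values were seen, and this is not said for each, as with PTPRR. The members and the 42 lists (924 entries) were chosen with earlier results of these data known. Alternatives covered the offset (16 or 64), 3 other normalizations, 2 other filters, probe set kinds and the value of a gene; leaving out probe sets over 8000 and reading only probe sets at or above both array medians were added after seeing the data. Scripts used Python 3.11.15, NumPy 2.4.6, pandas 2.3.3 and matplotlib 3.10.9 and were tested on simulated data.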

Additional observations from a re-analysis of the deposited data

Results flagged for a closer look

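Control probe sets for ribosomal RNA, which no comparison used, were mostly brighter on the 2-miRNA array than on either control array. The exception was the 5′ probe set of 18S ribosomal RNA. With the 2 microRNAs it read 1597, between the controls at 1337 (day 5) and 2493 (day 7). The ratio of the 2-miRNA signal to the higher of the controls was 1.34 for the 3′ probe set of 18S ribosomal RNA and 1.19 for its middle one. It was 3.01 for the 5′ and 2.02 for the middle probe set of the control M27830. The scaled signals of the 5′ M27830 probe set were 4655 on the 2-miRNA array, 4037 on the 4-miRNA array, 1449 and 1549 on the controls of day 5 and day 7. Their part in the differences of messenger RNAs was not tested.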

How the results depend on the processing

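Counts of agreeing genes moved with the scaling, the filter and the probe sets read. Against 65 higher and 29 lower, scaling by the array median gave 120 and 11, the centring by signal level 12 lower, an offset of 64 gave 18 lower, no filter on low signal gave 74 higher and 88 lower, a turned balance, and leaving out probe sets that may match several transcripts (names ending in _s_at or _x_at) 39 and 11. All 65 higher genes were kept under an offset of 16, the centring and the median scaling, 44 under an offset of 64 and 22 without such probe sets. Of the lower genes 12, 11 and 7 were kept under the centring, the median scaling and without such probe sets. By the brightest probe set, the genes at least 2-fold lower numbered 425 under median scaling, 391 with the filter at the 70th percentile and 1983 with no filter, where 1611 were higher.

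Median scaling moved the median of all genes from -0.16 to 0.01 and list medians with it: polarity complexes 0.020, HIF targets 1.39, interferon response 0.50, DNA replication -0.26, nuclear pore -0.26, ribosome biogenesis -0.51, small RNA silencing 0.086, goblet cell genes -0.26, and amino acid and nucleotide synthesis -0.39. The nuclear pore median was -0.25 under the centring, the interferon median 0.52 with the stricter filter, and the goblet median 0.033 with no filter. With a gene valued by the median over its probe sets, polarity complexes were at 0.052, HIF targets at 1.02, ribosome biogenesis at -0.51 and goblet genes at -0.19. Without probe sets that may match several transcripts the medians were 0.32 for reported miR-338-3p targets, 0.042 for miR-451 targets, 0.89 for HIF targets, 0.017 for the nuclear pore, -0.44 for ribosome biogenesis, 0.28 for small RNA silencing and -0.65 for goblet genes. In that last setting the median of all genes was -0.11, and each of these lists had fewer expressed members. The cause of these moves was not tested.

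Of 1614 values of 169 named genes under 10 alternatives, 1565 moved by less than the SD between probe sets and 39 moved by more. In the other 10 a log2 difference of at least 1 in size changed sign. Sign changes of smaller differences were not counted separately, so the 10 are not all of the sign changes. The median over probe sets gave ALDH1L1 -0.057, CUL4A -0.29, EZR -0.043, HK2 -0.82 and RAB11FIP1 -0.16; leaving out probe sets that may match several transcripts gave CUL4A -0.87, ECT2 -0.21, MAD2L1 -0.37, RAB11FIP1 -0.16 and TGFBR1 -0.025. No replicate could be left out with 1 array per group. No paired analysis was possible because each group holds 1 array. Agreement between probe sets of one array shows only that the array reads a gene alike in several places; it holds no information on the spread between cultures. Bright genes near the upper limit of the deposited signal and dim probe sets near background are the values least well measured.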

Other observations

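Goblet and secretory cell genes, intestinal stem cell genes and heat shock chaperones were described by no comparison above. Of 20 expressed goblet and secretory genes 9 were above 0 (40.6% of all genes), with a median of -0.44. In this list 1 was higher by 2-fold or more and 5 lower by as much (8.11% and 6.37% of all genes). No member agreed past 2-fold (0 of 6 with several probe sets). CLCA1, a secreted protein of goblet cells, read 1176 with the microRNAs against 3581 in the day 5 control, and the Paneth cell defensin DEFA5 read 1018 against 3225, each on 1 probe set. LYZ, the lysozyme of Paneth cells, was higher, at 489.8 against 111. Of 17 stem cell and Wnt target genes 3 were above 0 and 2 were at least 2-fold lower (6.37% of all genes), with a median of -0.37. Of 16 heat shock chaperones 2 were above 0, with a median of -0.59. The absorptive enterocyte list had 10 of 16 expressed members above 0 and a median of 0.05. From it, SLC26A3, an exchanger of chloride for bicarbonate, read 794 on the 2-miRNA array, 1366 on the 4-miRNA array, and then 223 and 3418 on the controls of day 5 and day 7. The water channel AQP8 read 709, 1183, 287 and 4952 in the same order.

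Expressed probe sets with several symbols or none numbered 4678. Against the day 5 control, 465 of these lay at least 2-fold above and 238 at least 2-fold below. Among named genes, by the brightest probe set, 8.11% and 6.37% did.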
